A study of Mus musculus with 10 samples.

Results

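The 9 genes described here encode the antibody chains, regulators, surface proteins and transport receptor that together make and export immunoglobulin A, or IgA. They were represented by 26 probe sets of 45101 on the array, taken as every probe set annotated with exactly 1 symbol and that symbol among Igha, Ighm, Jchain, Mzb1, Tnfrsf17, Irf4, Prdm1, Sdc1 and Pigr. Ighm had 11 probe sets, Sdc1 had 4, Igha had 3, Irf4 and Pigr had 2 each, and the other genes had 1 each.

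IgA is the main antibody of mucosal surfaces. B cells that have switched to the IgA heavy chain mature into plasma cells in the lamina propria of the gut, under the transcription factors Irf4 and Prdm1, and join IgA monomers into dimers through the joining chain. Epithelial cells take the dimers up at their base with the polymeric immunoglobulin receptor, encoded by Pigr, carry them across and release them into the lumen, and hepatocytes of rodents pass IgA into bile by the same receptor.

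Expression was measured in male mice of the outbred ICR stock, killed at 28 months of age, which makes them old animals. The control group of 9 mice ate the AIN-93 purified diet, and the yogurt group of 10 mice ate that diet with LB81 yogurt at 1 to 2% of it from 8 months of age onwards. All mice were kept free of specific pathogens, each in its own cage. RNA of each tissue was pooled over the mice of a group in equal amounts, and 100 ng of each pool was labelled for 1 Affymetrix whole-genome array, so jejunum, ileum, distal colon, liver and spleen had 1 control array and 1 yogurt array each. Pooling hides the spread between mice. A difference between the diets within a tissue therefore has no replicate check and no p-value, and a test between tissues measures only the spread between these pools of the same mice. In pooled tissue RNA, fewer cells of a type and less RNA per cell cannot be told apart.

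Values are log2 expression values per probe set, and a value of 1 more is 2-fold more. Values below the 50th percentile of an array, which lay between 5.42 and 5.49, were raised to it before any difference was taken. This level is called the floor, and 1 of 2 values at the floor makes a difference a lower bound, written as at least. The tissue labels were matched by their markers, with Lct above the floor only on the jejunum arrays, Hoxb13 only on those of distal colon, Fabp6 highest in ileum, Alb highest in liver, and Spic and Ms4a1 highest in spleen. Hba-a1, a globin gene also fixed as a spleen marker, was below the floor on all 10 arrays, and Lck and Serpina3k were not matched to a probe set with a single symbol. Exocrine pancreas genes stood out on the jejunum arrays, with all 14 matched genes higher than in ileum by a median of 6.25 log2 units, and all 14 higher in the yogurt than the control jejunum by a median of 1.52. Gapdh signal at the 3' end over that at the 5' end, a sign of RNA quality, came to a log2 ratio of 0.05 to 0.23 in gut, 0.86 to 0.98 in liver, 1.01 on the control and 1.29 on the yogurt spleen array. The same ratio for actin was 0.66 to 1.01 in gut, 1.82 to 2.01 in liver, and 1.01 and 1.09 in spleen.

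Promoter sequence was available for 6 of the genes in RefSeq on build GRCm38.p6, and 3 are shown because their tissue patterns below differed. Jchain was far above the floor in every tissue, and Tnfrsf17 was at or near the floor outside jejunum. Pigr was high in gut and liver and below the floor in spleen. All 3 were highest in jejunum. Each is the 250 bases upstream of the annotated start, read 5′ to 3′ on the strand of the gene. They are chr5:88527898-88528147 on the minus strand for Jchain, chr16:11313559-11313808 on the plus strand for Tnfrsf17 and chr1:130826434-130826683 on the plus strand for Pigr. Capitals mark matches, on either strand, to 8 motifs searched: the octamer ATTTGCAT, the E-box CACGTG, the E-box CAGCTG, the E-box CACCTG, the interferon regulatory factor repeat (GAAA, any 2 bases and GAAA again), the composite of an ETS site and that factor (GGAA, any 2 bases and GAAA), the unfolded protein response element TGACGTGG and the TATA box TATAAA.
Jchain: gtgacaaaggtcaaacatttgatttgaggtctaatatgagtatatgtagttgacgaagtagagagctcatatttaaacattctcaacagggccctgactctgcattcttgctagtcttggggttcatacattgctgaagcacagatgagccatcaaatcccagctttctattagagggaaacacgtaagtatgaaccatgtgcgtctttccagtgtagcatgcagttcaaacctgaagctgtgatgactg
Tnfrsf17: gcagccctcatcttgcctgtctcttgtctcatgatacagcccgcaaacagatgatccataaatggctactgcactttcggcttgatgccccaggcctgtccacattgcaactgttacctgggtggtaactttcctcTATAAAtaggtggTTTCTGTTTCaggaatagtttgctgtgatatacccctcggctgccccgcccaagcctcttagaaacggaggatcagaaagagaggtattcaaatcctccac
Pigr: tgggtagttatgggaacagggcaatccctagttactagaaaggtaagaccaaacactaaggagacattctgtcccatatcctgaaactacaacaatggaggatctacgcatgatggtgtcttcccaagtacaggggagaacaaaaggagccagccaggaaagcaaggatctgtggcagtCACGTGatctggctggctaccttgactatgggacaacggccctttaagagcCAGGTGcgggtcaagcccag
The Tnfrsf17 sequence holds TATAAA with its first base 114 bases upstream of the start and a match to the interferon regulatory factor repeat on the other strand 101 bases upstream. The Pigr sequence holds CACGTG 71 bases upstream and CACCTG, read on the other strand, 20 bases upstream. No match was found in the Jchain window. Over 32851 promoters of the same length, 12.4% held TATAAA, 2.98% that repeat, 6.02% CACGTG and 17.2% CACCTG, so these matches describe the letters and locate no binding site.

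The first comparison is between tissues. IgA heavy chain and joining chain transcripts were highest in the gut and spleen and lowest in liver, the IgM heavy chain was highest in spleen, and the transport receptor was high in the 3 gut segments and liver and below the floor in spleen. Of the 26 probe sets, 24 were above the floor on at least 2 arrays and were tested with limma over 26905 probe sets. The other 2, both of Ighm, were below the floor on every array. A probe set was called when its adjusted p (limma, Benjamini-Hochberg over all probe sets) was under 0.05 and the difference at least 2-fold. Each tissue mean is over 2 arrays, and errors of differences are standard errors of the fit.

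**Figure D1:**
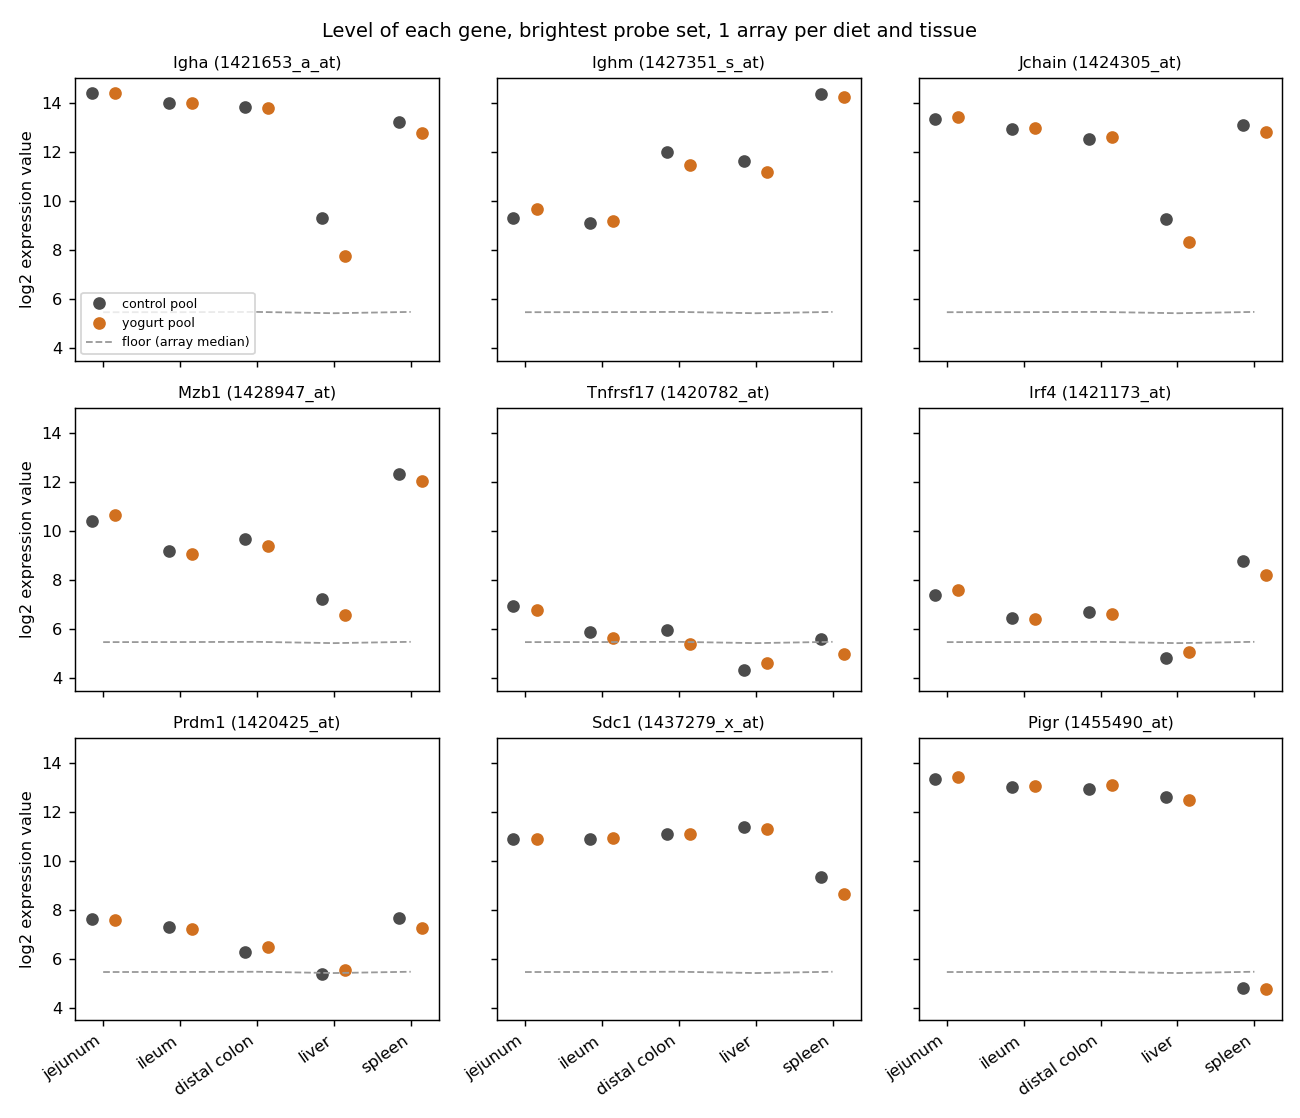
Log2 expression value of the brightest probe set of each of the 9 genes in the 5 tissues, with the control pool in grey, the yogurt pool in orange and the floor as a dashed line. Igha and Jchain are far lower in liver than elsewhere, and Pigr drops below the floor in spleen.

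Igha, the constant region of the IgA heavy chain, had 3 probe sets that ran together over the 10 arrays, with Pearson's r between 0.996 and 0.999. Probe set 1421653_a_at read 14.40 and 14.41 in the control and yogurt jejunum, 13.99 and 14.02 in ileum, 13.82 and 13.80 in distal colon, 9.32 and 7.76 in liver and 13.22 and 12.78 in spleen. The 6 gut arrays all lay above both spleen arrays, and these above both liver arrays. Jejunum exceeded liver 58.3-fold on this probe set (log2 difference 5.87 ± 0.35 SE, limma's adjusted p = 3.21e-06), 54.8-fold on 1425763_x_at and 80.3-fold on 1429381_x_at. Spleen exceeded liver 20.5-fold to 23.1-fold on the 3 probe sets. Along the order jejunum, ileum, distal colon, spleen and liver, no neighbouring gut segments differed at the adjusted threshold, and distal colon exceeded spleen by less than 2-fold on each probe set. Jejunum exceeded spleen 2.68-fold on 1425763_x_at and 3.48-fold on 1429381_x_at, called under all 19 alternative settings, and 2.66-fold on 1421653_a_at, which lost the call under 3 of 19. The jejunum values of 1421653_a_at were the highest on their arrays, and those of the other 2 probe sets lay up to 0.28 below them. Saturation was not tested, and if present it would make the folds over liver and spleen too small.

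Jchain, the joining chain of dimeric IgA and pentameric IgM, was measured by probe set 1424305_at. It read 13.36 and 13.43 in jejunum, 13.11 and 12.81 in spleen, 12.92 and 12.99 in ileum, 12.55 and 12.60 in distal colon and 9.28 and 8.33 in liver. Gut and spleen overlapped, whereas both liver arrays stood below all others. Jejunum exceeded liver 24-fold (4.59 ± 0.23, adjusted p = 1.26e-06) and distal colon exceeded liver 13.6-fold. Neighbours above liver in this order did not differ at the adjusted threshold, with 0.43 ± 0.23 between jejunum and spleen and 0.38 ± 0.23 between ileum and distal colon.

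Ighm, the constant region of the IgM heavy chain, had 11 probe sets that did not agree on 1 order of tissues. Spleen was highest in 7 of those above the floor in several tissues, and exceeded liver 7.38-fold to 19.7-fold. Among these, 1427329_a_at read 13.64 and 13.46 in spleen, 10.47 and 10.01 in distal colon, 9.72 and 9.24 in liver, 7.78 and 8.12 in jejunum and 7.68 and 7.80 in ileum. Its distal colon arrays lay above the other gut arrays, with distal colon 4.88-fold above jejunum (2.29 ± 0.19, adjusted p = 5.30e-05). Distal colon exceeded jejunum 4.72-fold on 1427351_s_at and 7.1-fold on 1425385_a_at, and these 3 were the Ighm probe sets called higher in distal colon than in jejunum. Probe set 1452535_at ran the other way, reading 10.09 and 10.06 in jejunum, 9.16 and 9.11 in ileum, 8.80 and 8.05 in distal colon, 8.56 and 7.02 in spleen and 5.15 and 4.92 in liver, which is the order of tissues seen for Igha. Jejunum exceeded spleen 4.87-fold on it (2.28 ± 0.36, adjusted p = 0.000685) and distal colon 3.13-fold (1.65 ± 0.36, limma's adjusted p = 0.00602). The remaining probe sets were 1427869_at, also highest in spleen and above the floor there alone, and the 2 that were not tested. Probe sets of immunoglobulin genes can bind related chains, and the files do not settle which transcript each of them measured.

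**Figure D2:**
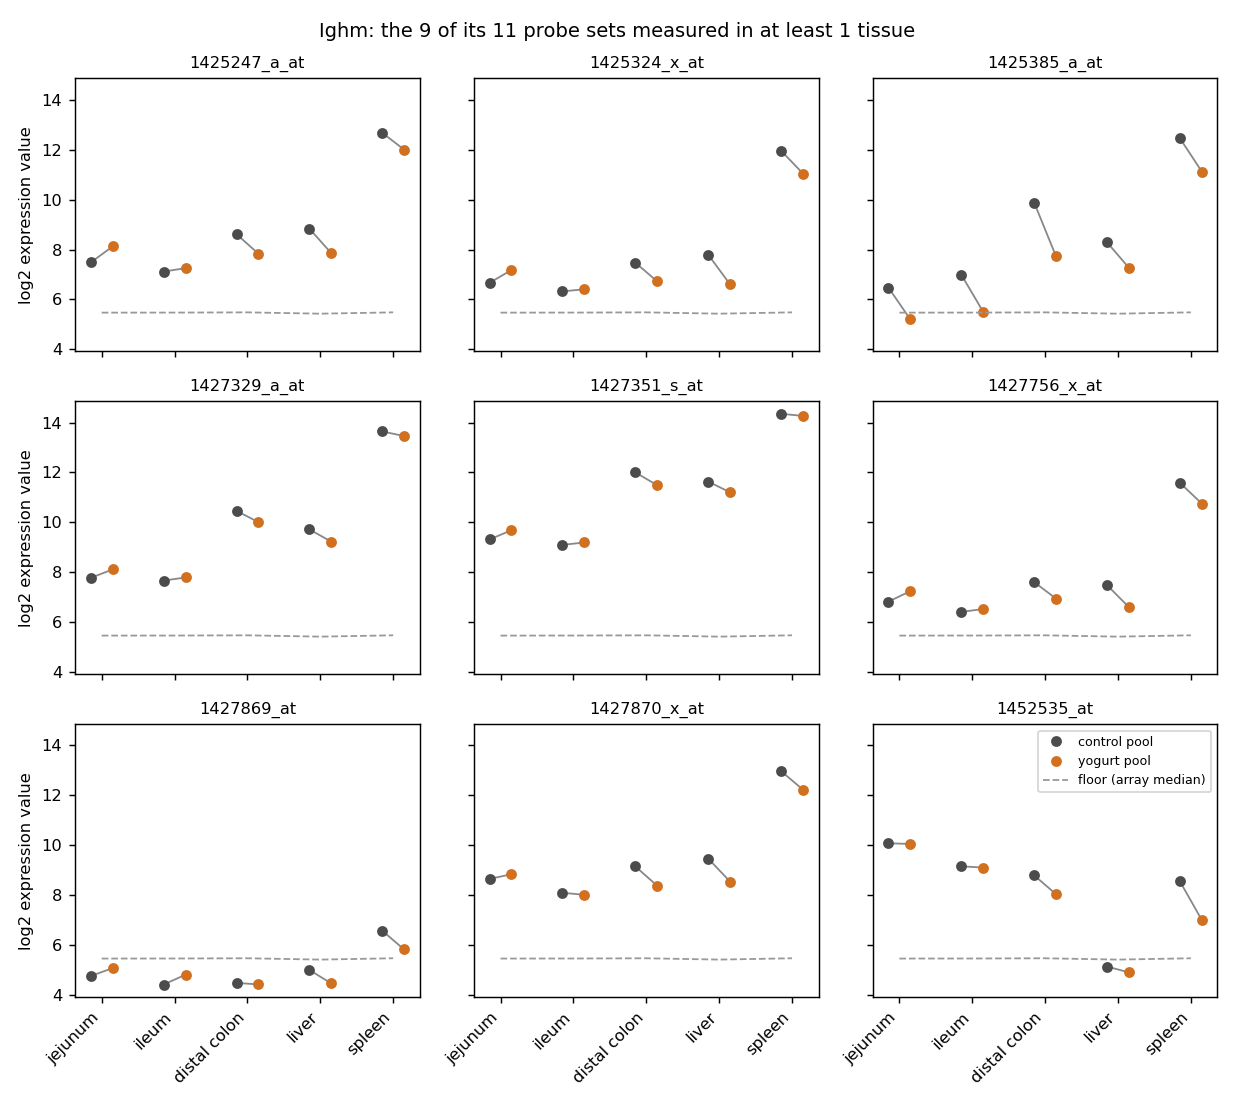
Log2 expression values, by tissue, of the 9 Ighm probe sets above the floor on at least 1 array, with a line from the control pool (grey) to the yogurt pool (orange) and the floor dashed. Spleen is highest in all but 1452535_at, which is highest in jejunum, and 1425385_a_at is lower in the yogurt pool of every tissue.

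B cell genes were compared between the same gut segments, where 3 Ighm probe sets were called higher in distal colon and 1452535_at lower. Of 23 matched B cell genes, 13 were called higher in distal colon than in jejunum (5.88% of all probe sets tested) and 0 lower (4%). Their median log2 difference, jejunum minus distal colon, was -1.08 against -0.07 over all genes. Ms4a1, the B cell surface protein CD20, was 7.92-fold higher in distal colon, and Cxcl13, the chemokine that draws B cells into follicles, 9.30-fold higher. The summed antilogged values of the B cell list were 5234 and 4818 on the distal colon arrays and 2297 and 2296 on those of jejunum, where 15 and 16 of 23 genes were above the floor. The part of B cells in the Ighm differences was not tested.

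Irf4 and Prdm1, the transcription factors that set up the plasma cell programme, differed in their order of tissues. Irf4 probe set 1421173_at read 8.78 and 8.22 in spleen, 7.38 and 7.58 in jejunum, 6.69 and 6.63 in distal colon and 6.46 and 6.42 in ileum, and was below the floor on both liver arrays. Both jejunum arrays lay above the other 4 gut arrays, and jejunum exceeded ileum 2.06-fold (1.04 ± 0.17, adjusted p = 0.00298), a call lost under 3 of 20 alternatives. Spleen exceeded liver at least 8.39-fold. The second Irf4 probe set, 1421174_at, was close to the floor throughout. Prdm1 read 7.62 and 7.59 in jejunum, 7.69 and 7.29 in spleen, 7.30 and 7.21 in ileum, 6.30 and 6.50 in distal colon and 5.41 and 5.56 in liver. Distal colon was lower than the small intestine on both arrays, with jejunum 2.31-fold above it (1.21 ± 0.14, adjusted p = 0.000308), a call lost under 2 of 20 alternatives.

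Tnfrsf17, or BCMA, the receptor through which plasma cells receive the survival factors APRIL and BAFF, read 6.95 and 6.79 in jejunum, 5.89 and 5.64 in ileum, 5.97 and 5.39 in distal colon, 5.60 and 4.97 in spleen and 4.35 and 4.64 in liver. Only the 2 jejunum arrays stood more than 1 unit above the floor. Jejunum exceeded ileum 2.14-fold (1.10 ± 0.11, adjusted p = 0.00038), but a floor at the 65th percentile cut the log2 difference to 0.24 and a pseudocount to 0.78. Mzb1, an endoplasmic reticulum protein that assists antibody assembly and secretion, read 12.34 and 12.05 in spleen, 10.41 and 10.65 in jejunum, 9.68 and 9.39 in distal colon, 9.20 and 9.06 in ileum and 7.22 and 6.56 in liver. No tissue overlapped another. Spleen exceeded jejunum 3.17-fold (1.67 ± 0.17, adjusted p = 6.45e-05) and liver 39.7-fold, and jejunum exceeded ileum 2.65-fold (1.40 ± 0.17, adjusted p = 0.00092), each called under every alternative run.

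Sdc1, syndecan-1 or CD138, marks plasma cells but is also made by epithelial cells and hepatocytes. Its probe set 1437279_x_at read 11.37 and 11.30 in liver, 11.11 and 11.11 in distal colon, 10.89 and 10.95 in ileum, 10.88 and 10.89 in jejunum and 9.33 and 8.66 in spleen. Both spleen arrays lay below all others, and liver exceeded spleen 5.04-fold (2.33 ± 0.16, adjusted p = 4.85e-06). The other 3 probe sets were also lowest in spleen, which liver exceeded 8.17-fold on 1415943_at, 6.01-fold on 1415944_at and at least 2.43-fold on 1448158_at. Sdc1 was lowest in the tissue where Mzb1, Irf4 and most Ighm probe sets were highest.

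Pigr was high in jejunum, ileum, distal colon and liver and below the floor in spleen. Probe set 1455490_at read 13.35 and 13.40 in jejunum, 13.00 and 13.07 in ileum, 12.93 and 13.11 in distal colon and 12.59 and 12.47 in liver, against 4.83 and 4.76 in spleen. Liver exceeded spleen at least 132-fold (7.05 ± 0.07, adjusted p = 4.32e-10) and jejunum exceeded spleen at least 238-fold. The second probe set, 1450060_at, gave at least 128-fold and at least 231-fold. Spleen values at the floor show almost no spread, so these standard errors and p-values can be too small. Jejunum lay above liver by less than 2-fold on both probe sets.

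Counts over the 24 probe sets tested are set here beside the share of all probe sets called in the same direction. Jejunum was higher than ileum for 3 (1.85%) and lower for 0 (2.16%), and the 3 were Irf4, Tnfrsf17 and Mzb1. Jejunum was higher than distal colon for 4 (4%) and lower for 3 (5.88%). Ileum was higher than distal colon for 0 (3.52%) and lower for 4 (3.94%), all Ighm. At an unadjusted p under 0.05, 10 of the 24 differed between jejunum and ileum and 9 between ileum and distal colon. Liver was exceeded by jejunum for 9 (12.3%), by ileum for 8 (13.1%) and by distal colon for 8 (14.6%), and exceeded them for 3 (9.83%), 4 (10.3%) and 0 (9.28%), where 15 of the 24 differed between distal colon and liver at an unadjusted p under 0.05. Spleen was exceeded by jejunum for 11 (13.8%), ileum for 9 (14.3%), distal colon for 5 (14.8%) and liver for 6 (14.3%), and exceeded them for 9 (11.3%), 9 (11.8%), 10 (10.1%) and 15 (16%). Several of these probe sets share a target gene, so the counts are not counts of independent genes.

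Other genes of the pathway, from lists chosen with earlier results of these data known, are given for comparison. Of 20 plasma cell surface and regulator genes, 4 were called higher and 0 lower in jejunum than in ileum, led by Pou2af1, a B cell coactivator of octamer factors, at 2.85-fold, and Tnfrsf13b, the TACI receptor, at 2.23-fold. Of 28 genes of the secretory machinery, 1 was called higher in jejunum than in ileum, the peroxidase Prdx4 at 2.05-fold, and 0 lower. The pancreas genes named above are higher in jejunum as well, and their part in these differences was not tested. Of 21 tested genes of IgA switching, survival and homing, 5 were called higher and 3 lower in jejunum than in distal colon. Ccl25, the small intestinal chemokine for CCR9-bearing plasma cells, was 66.1-fold higher in jejunum, while Cxcl13 was lower, as given above. Of 18 genes of epithelial transport, 7 were called higher in jejunum than in liver and 0 lower. Among them Rab25, a vesicle GTPase of epithelial recycling, was 11.8-fold higher.

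The genes most alike in pattern were ranked by Pearson's r over the 10 arrays among 3913 genes that varied by at least 2 log2 units. For Igha they were Prag1 (r = 0.985), Csnk1g1 (0.984), Pycard (0.983), Igkv9-120 (0.982) and Tagln2 (0.982). For Jchain they were Igkv8-30 (0.997), Csnk1g1 (0.993), Atpif1 (0.987), Ptger4 (0.981) and Ankrd13a (0.981). For Pigr they were Pkp2, Ugt2b34 and Sult1d1, each at 0.998, and Cldn2 and Slc4a4, each at 0.997. The 10 arrays are 5 tissues seen 2 times, so r mostly records the 5 tissue levels. Igkv9-120 and Igkv8-30 are kappa light chain segments.

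The second comparison is between the diets within each tissue. In jejunum and ileum the Igha ratios were close to 0, from probe sets at or near the top of their arrays, where a change could go unseen, and those of Jchain were 0.08 and 0.07. In distal colon the IgM heavy chain was lower in the yogurt pool, and in liver and spleen IgA and IgM heavy chain values were lower together. A probe set was measured in a tissue when at least 1 of its 2 arrays was above the floor, and probe sets at least 1.5-fold apart were counted. All diet ratios are log2 values, yogurt minus control, from 1 array each.

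**Figure D3:**
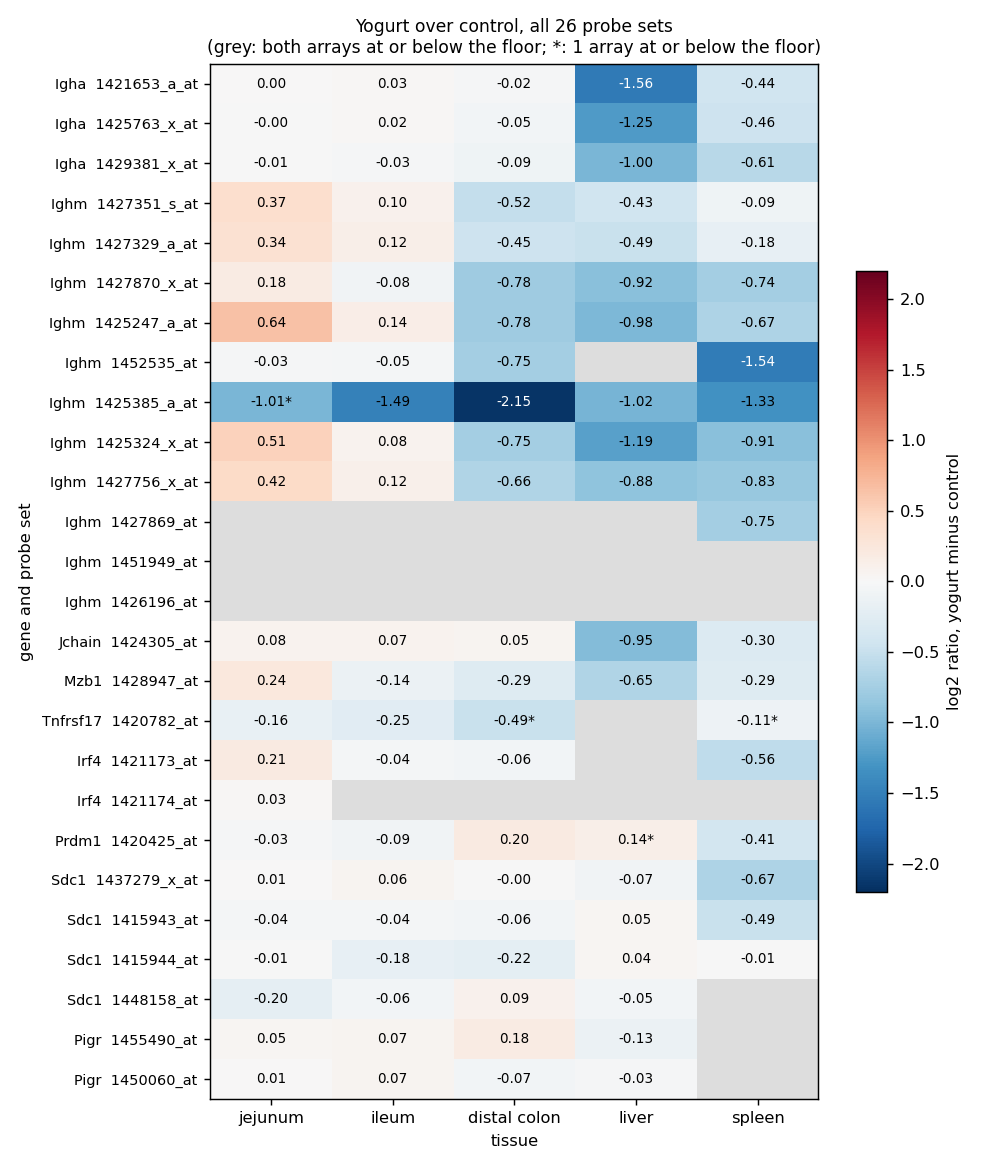
Log2 ratio of yogurt over control for all 26 probe sets in the 5 tissues, blue for lower and red for higher in the yogurt pool. Igha is near 0 in gut and below -0.99 in liver, and all measured ratios in spleen are below 0.

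In jejunum, 1 of 23 measured probe sets was at least 1.5-fold higher in the yogurt pool (0.705% of all measured probe sets) and 1 at least 1.5-fold lower (0.281%). Both belonged to Ighm, 1425247_a_at at 0.64 and 1425385_a_at at -1.01 or lower, the latter against the floor. Of the 8 measured Ighm probe sets 6 were above 0, and their median was 0.35. Igha ratios lay between -0.01 and 0.00, and those of Jchain, Pigr and Mzb1 were 0.08, 0.01 to 0.05 and 0.24. In ileum, 0 of 22 were at least 1.5-fold higher (0.238%) and 1 lower (0.372%), again Ighm 1425385_a_at at -1.49. The Ighm median in ileum was 0.09, with 3 of 8 below 0. Igha in ileum lay between -0.03 and 0.03, Jchain at 0.07 and both Pigr probe sets at 0.07.

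In distal colon, 6 of 22 measured probe sets were at least 1.5-fold lower in the yogurt pool (0.19% of all measured) and 0 higher (0.883%), and all 6 belonged to Ighm. Probe set 1427870_x_at read 9.16 in the control and 8.38 in the yogurt pool, a ratio of -0.78. All 8 measured Ighm probe sets were lower, from -2.15 to -0.45, while Igha stayed between -0.09 and -0.02 and Jchain at 0.05. The Igha probe sets lay 0.59 to 1.19 log2 units below the brightest probe set of these arrays, where a change could go unseen. Tnfrsf17 was at -0.49 or lower, with the yogurt array below the floor. The B cell list had 0 of 22 measured genes past 1.5-fold in either direction, with a median of -0.14 against -0.01 over all genes, and its summed value in the yogurt pool was 92.1% of the control. Adipocyte genes were at least 1.5-fold higher in 5 of 6, with a summed value 224% of the control, and smooth muscle genes had a median of -0.23 with a summed value 86.7% of it. The part of B cells, fat or muscle in the Ighm ratios was not tested.

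In liver, 10 of 19 measured probe sets were at least 1.5-fold lower in the yogurt pool (0.48% of all measured) and 0 higher (0.402%), and 5 were at least 2-fold lower (0.0735%). The median ratio was -0.65, against -0.02 over all measured probe sets. All 3 Igha probe sets were lower. Probe set 1425763_x_at read 9.15 in the control and 7.89 in the yogurt pool (-1.25), and 1429381_x_at read 8.31 and 7.30. Jchain read 9.28 and 8.33 (-0.95), and Mzb1 7.22 and 6.56 (-0.65). Of 7 measured Ighm probe sets, all were lower, from -1.19 to -0.43, and 5 passed 1.5-fold. The genes also made by hepatocytes stayed near 0, with Pigr at -0.13 and -0.03 and Sdc1 between -0.07 and 0.05. Irf4 and Tnfrsf17 were below the floor on both liver arrays.

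The lists of B cell, hepatocyte and secretory genes had median ratios near 0 in liver. The B cell list had 0 of 13 measured genes past 1.5-fold in either direction, with a median of -0.03 and summed values of 1352 in the control and 1341 in the yogurt pool. Pax5, a defining B cell factor, was below the floor on both arrays. Of 28 secretory machinery genes, 0 passed 1.5-fold, and hepatocyte genes had a median of -0.03 over 12. Other immunoglobulin probe sets, including those annotated with several symbols, had a median of -0.45 over the 7 measured, against -0.02 over all measured probe sets. Of these 7, 1 was at least 1.5-fold lower (0.48% of all measured) and 0 higher (0.402%). The 3 with several symbols carry the same 5 symbols, so they are not independent. Ighg3, the constant region of IgG3, was higher at 0.54. The chemokine Cxcl13 and the endotoxin co-receptor Cd14 were also higher, at 1.33 and 1.32.

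In spleen, all 20 measured probe sets were lower in the yogurt pool, where 60.3% of all measured probe sets were. Of them 9 were at least 1.5-fold lower (1.33% of all measured) and 0 higher (0.613%), and the median was -0.53 against -0.05 over all probe sets. Of 9 measured Ighm probe sets, 7 passed 1.5-fold, with 1452535_at lowest, at 8.56 in the control and 7.02 in the yogurt pool (-1.54). The 2 that did not were 1427351_s_at, at -0.09, and 1427329_a_at, at -0.18. They were the brightest Ighm probe sets in spleen. On the control and yogurt arrays they lay 0.10 and 0.27, and 0.80 and 1.07, log2 units below the brightest probe set. A change could go unseen there. The Igha ratios ran from -0.61 to -0.44. Irf4 read 8.78 and 8.22 (-0.56), Prdm1 7.69 and 7.29 (-0.41), and Jchain and Mzb1 were at -0.30 and -0.29. Sdc1 was at -0.67 on 1437279_x_at, -0.49 on 1415943_at and -0.01 on 1415944_at. Irf4 was just short of 1.5-fold, and Igha 1429381_x_at, at -0.61, was just past it.

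Single genes of other lists were also lower in the yogurt spleen. The germinal centre gene Rgs13 read 8.56 in the control and was below the floor in the yogurt pool, a ratio of -3.07 or lower. Fcer2a, the low-affinity IgE receptor of B cells, was at -1.19, and Eaf2, an elongation factor cofactor of germinal centre B cells, at -1.01. The B cell list as a whole had 2 of 23 genes at least 1.5-fold lower and 0 higher, with a median of -0.10, and all 23 were above the floor on both arrays with summed values of 31207 and 28520. The B cell markers Ms4a1 and Pax5 were higher, at 0.10 and 0.27. The secretory machinery had a median of -0.22 with 0 of 28 past 1.5-fold, and macrophage and dendritic genes a median of -0.35 with 2 of 17 lower. T cell genes were at -0.03. Other immunoglobulin probe sets were below 0 in 20 of 24 (60.3% of all measured probe sets). Of the 24, 10 were at least 1.5-fold lower (1.33%) and 1 at least 1.5-fold higher (0.613%). The higher Gapdh 3' over 5' ratio of the yogurt spleen array is given above, and the actin ratio was 1.01 in the control and 1.09 in the yogurt spleen. The part of RNA quality or of any of these cell types in the spleen ratios was not tested.

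**Figure D4:**
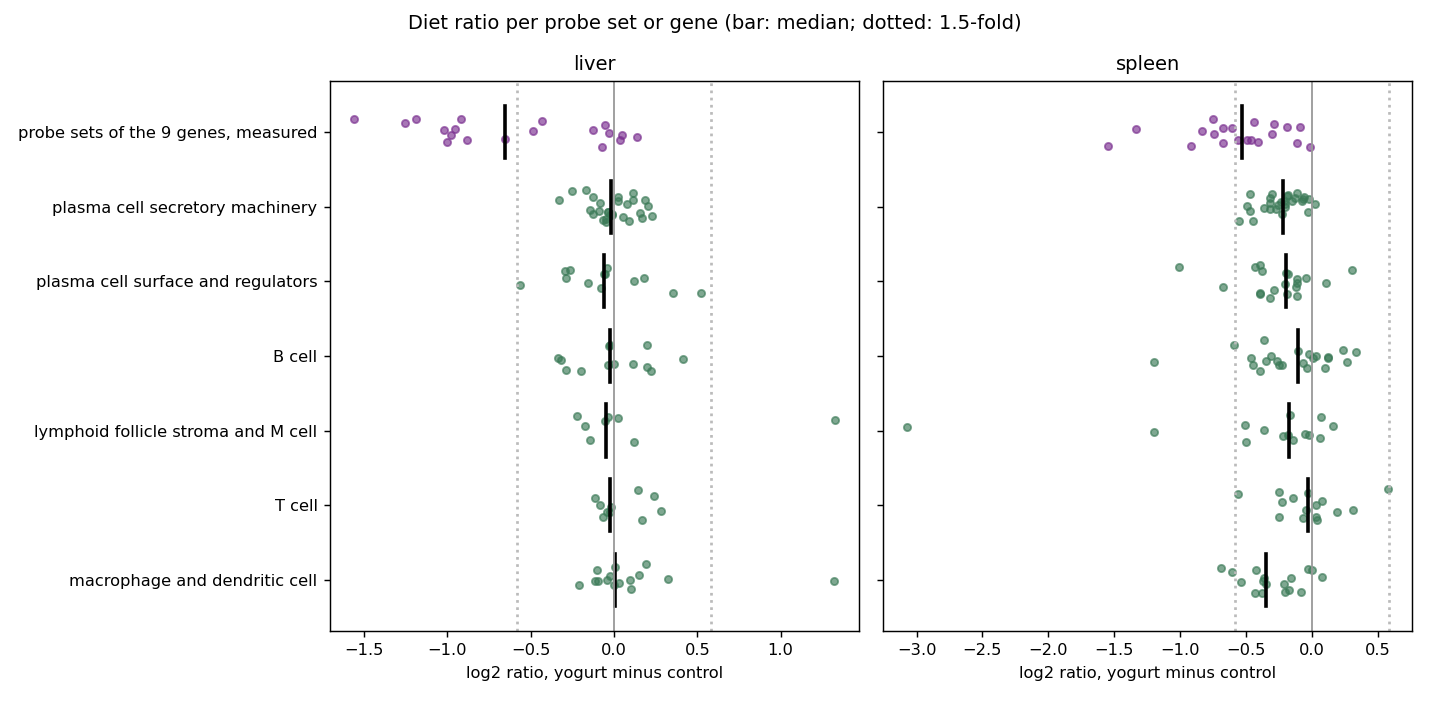
Log2 ratio of yogurt over control in liver (left) and spleen (right) for the measured probe sets of the 9 genes (purple) and for genes of 6 cell type or pathway lists (green), with black bars at medians and dotted lines at 1.5-fold. In liver the 9 genes have a median of -0.65 while the B cell median is -0.03, and in spleen the 9 genes have a median of -0.53.

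Across tissues, 16 of the probe sets were measured in both liver and spleen, and 6 of them were at least 1.5-fold lower in both, where 0.0785% of all probe sets were. These were 5 probe sets of Ighm and Igha 1429381_x_at. Among the 16 probe sets measured in all 5 tissues, 2 were lower in the yogurt pool in every tissue, Igha 1429381_x_at and Ighm 1425385_a_at, where 10.3% of all probe sets were. This count is close to that share. The ratios of Igha 1429381_x_at were only -0.01 in jejunum, -0.03 in ileum and -0.09 in distal colon. Ighm 1425385_a_at was at least 2-fold lower in all 5. It read 6.48 and 5.20 in the control and yogurt jejunum, 6.99 and 5.51 in ileum, 9.87 and 7.73 in distal colon, 8.29 and 7.27 in liver and 12.45 and 11.12 in spleen. Of 18730 probe sets measured in all 5 tissues, 2 (0.0107%) were at least 2-fold lower in each, the other being a probe set of Xaf1, which encodes a proapoptotic protein. The remaining Ighm probe sets did not share this: 1425247_a_at was at 0.64 in jejunum and 0.14 in ileum.

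A diet shift common to the 5 tissues was tested with limma as the diet term of the fit, in which the tissues stand in for replicates although they come from the same mice. None of the 24 probe sets was called in either direction (adjusted p under 0.05; 0.026% of all probe sets were called), and 4 had an unadjusted p under 0.05. The largest was Ighm 1425385_a_at, at -1.40 ± 0.16 with limma's adjusted p = 0.0629, which ranged from 0.00176 to 0.440 over 19 alternatives. Its diet ratio was below 0 in 5 of 5 tissues.

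The diet ratio of each tissue was also tested against that of the other 4, which asks whether liver or spleen differed from the rest. In liver 0 of the 24 were called (0.0966% of all), with 5 at an unadjusted p under 0.05. Igha 1421653_a_at differed most there, by -1.45 ± 0.19, with limma's adjusted p = 0.131 and a range of 0.0223 to 0.526 over 16 alternatives. Jchain differed by -0.93 ± 0.16 (limma, adjusted p = 0.245, ranging from 0.0418 to 0.797). Without either spleen array 3 probe sets were called in liver. In spleen 2 of the 24 were called lower (0.338% of all), each resting on 1 yogurt and 1 control array in spleen. Sdc1 1437279_x_at read 9.33 and 8.66 in the control and yogurt spleen and differed from the other tissues by -0.67 ± 0.07 (limma, adjusted p = 0.0330). The call was lost when any of the 6 gut arrays was left out and without the intensity trend in eBayes, with limma's adjusted p between 0.00373 and 0.166 over 16 alternatives. Ighm 1427869_at differed by -0.75 ± 0.05 (limma, adjusted p = 0.0106), but it was above the floor in spleen alone, so the other 4 ratios had no spread and the call says nothing of a difference between tissues. Its call was lost under 10 of 15 alternatives (limma's adjusted p between 8.17e-05 and 0.396). No probe set was called in jejunum (0.16% of all), ileum (0%) or distal colon (0.138%), with 7, 0 and 2 at an unadjusted p under 0.05.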

How the data were processed

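The log2 expression values per probe set deposited by the authors were used as given. MAS5 and affy appear in the submitters' processing notes, without version or role. Summarisation and scaling, not given in the sources used here, stay unknown. Pools, 10 arrays in all, were grouped by the sample titles. Probe sets were named from the platform annotation, checked by gene number against RefSeq on GRCm38.p6: 34945 had 1 symbol, 932 several and 9160 none, and 34741 of the first matched. Another 4 probe sets that list a member among several symbols were left out, and the 9 genes and 14 lists (265 genes, 231 matched) were chosen with earlier results of these data known.

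Values under each array's 50th percentile were raised to it. Tissues were compared with limma 3.58.1 in R 4.3.3 (lmFit, eBayes with trend) on tissue and diet, with 4 residual degrees of freedom, over 26905 probe sets above the floor on at least 2 arrays. The tests of 1 tissue's diet ratio against the other 4 left 3. The script was tested on simulated data. Figures and counts used Python 3.11.15. A list gene was represented by its probe set with the highest mean. The text names every member, up to 3 leading genes of a list per comparison, the 5 genes most alike and the cell type markers. Xaf1 was named after its values were seen. Alternatives were floors at the 35th and 65th percentiles, no floor, a pseudocount of 32, median centring, quantile normalization, no filter, eBayes without trend, no diet term, gut arrays alone, and leaving out each array. The number of arrays limits the precision.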

Additional observations from a re-analysis of the deposited data

Results flagged for a closer look

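The diet ratio in spleen differed from that in the other 4 tissues by a test of the difference itself for 2 probe sets, each with 1 yogurt and 1 control array in spleen. Sdc1 1437279_x_at differed by -0.67, with both pools well above the floor in every tissue. Its call was lost without any 1 of the 6 gut arrays, and the 3 other Sdc1 probe sets were not called. Their diet ratios in spleen were -0.49 on 1415943_at and -0.01 on 1415944_at, and 1448158_at was below the floor there. Ighm 1427869_at differed by -0.75, but it was above the floor in spleen alone, so this test is void as a comparison of tissues. Its call was lost under 10 of 15 alternatives.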

How the results depend on the processing

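No pairing of replicates within the groups was possible because each group holds 1 array and the labels give no replicate numbers. The fit on tissue and diet already matches the arrays by tissue and by pool of mice. Of 7600 values of single probe sets under an alternative, 7450 kept direction and side of the threshold, 91 lost a call, 50 gained one, 9 moved and 0 reversed. The common diet shift, with 0 called, gave 1 lower with a 35th-percentile floor, no floor or the pseudocount. Called lower in spleen against the other 4 tissues were 1 (floors at the 35th or 65th percentile, no floor, pseudocount) or 0 (eBayes without trend) in place of 2, and 0 to 4 leaving out 1 array. In liver 1 was called with no floor, the pseudocount or no filter, and 0 to 3 leaving out 1 array, in place of 0. Jejunum over ileum fell from 3 to 1 with the floor at the 65th percentile or the pseudocount, and ranged from 2 to 5 leaving out 1 array. Jejunum over distal colon fell from 4 to 2 with that floor and 1 with the pseudocount, and ranged from 2 to 6. Ileum over distal colon ranged from 0 to 1.

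For diet within a tissue, the 1 probe set higher in jejunum became 0 with the pseudocount, at 2-fold or with 1 probe set per gene. Those lower became 0 in jejunum and ileum with the floor at the 65th percentile or 1 probe set per gene. At 2-fold, 1 was lower in distal colon, 5 in liver and 2 in spleen, and with 1 probe set per gene 0, 3 and 1. Ighm is then represented by 1427351_s_at, at -0.52 in distal colon and -0.09 in spleen, where it lies near the top of the arrays. The causes of the other moves were not tested. Leaving out 1 array leaves its tissue with 1, assumed to vary like the rest. Signal at or near the floor limits Tnfrsf17 outside jejunum and Irf4 and Prdm1 in liver.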

Other observations

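Ighg3, the IgG3 heavy chain, measured by 1427503_at, was higher in the yogurt pool in all 5 tissues, at 0.26 in jejunum, 0.37 in ileum, 0.20 in distal colon, 0.54 in liver and 0.55 in spleen, each from 1 array per diet. Ighm medians were above 0 as well in jejunum and ileum, at 0.35 and 0.09, and below 0 in distal colon, liver and spleen, at -0.75, -0.92 and -0.75.

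Among genes of IgA switching, survival and homing in spleen, Il5ra, the receptor for interleukin 5, was at 1.14 or higher against a control value below the floor, whereas Tnfsf13b, which encodes BAFF, was at -0.62 and the homing receptor Ccr9 at -0.61. In liver Tent5c, a poly(A) polymerase of plasma cells, was at -0.57.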
